A study of Mus musculus with 24 samples.

Results

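The genes described here are 9 that act in haemostasis and fibrinolysis at the vessel wall: F3, Tfpi, Thbd, Procr, Pros1, Vwf, Plat, Plau and Serpine2. They were chosen by symbol from the 25941 genes of the deposited count table, and each symbol matched 1 row. RNA of the thoracic aorta was sequenced in 24 libraries from adult male C57BL/6 wildtype mice aged 10 to 12 weeks. For 3 weeks the mice ate chow with celecoxib at 100 mg/kg/day (8 libraries), chow with rofecoxib at 50 mg/kg/day (8 libraries) or chow with no drug added (8 libraries, the controls), and all aortas were taken at ZT11, 11 hours after lights on. Celecoxib and rofecoxib are both selective inhibitors of cyclooxygenase-2, the inducible enzyme that makes prostaglandin H2. The drugs were given in feed to intact animals and whole aorta was sequenced, so each library mixes all cell types of the wall and of tissue left on it.

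An intact vessel keeps blood fluid through proteins made by its own cells. Tissue factor, encoded by F3, sits on smooth muscle and adventitial cells beneath the endothelium and starts coagulation when blood reaches it. Endothelial cells carry inhibitors: the tissue factor pathway inhibitor Tfpi, and thrombomodulin (Thbd) with the endothelial protein C receptor (Procr), which together turn thrombin towards activating protein C, whose cofactor is protein S (Pros1). Von Willebrand factor (Vwf) is stored in endothelial granules and tethers platelets. Clots are dissolved by plasmin, which tissue-type (Plat) and urokinase-type (Plau) plasminogen activators release from plasminogen, and protease nexin-1 (Serpine2) inhibits thrombin and both activators.

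Promoter sequence was at hand for 5 of the 9 genes, in 6 windows that run from 250 bases before to 50 bases after a RefSeq transcription start on GRCm38.p6. The windows of F3, the member that differed between groups, and of Tfpi, Pros1 and Procr, which varied together between libraries, are shown 5′ to 3′ on the gene's own strand. Capitals mark the letters TGANTCA, the core bound by AP-1, and GGGCGG, the box bound by Sp1, on either strand.
F3, chr3:121723287-121723586, plus strand: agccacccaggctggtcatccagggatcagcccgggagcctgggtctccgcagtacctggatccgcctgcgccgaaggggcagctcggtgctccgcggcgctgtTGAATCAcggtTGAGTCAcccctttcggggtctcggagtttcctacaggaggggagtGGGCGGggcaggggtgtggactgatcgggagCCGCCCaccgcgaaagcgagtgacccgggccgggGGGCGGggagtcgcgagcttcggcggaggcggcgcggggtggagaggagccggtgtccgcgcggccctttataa
Tfpi, first start, chr2:84476710-84477009, minus strand: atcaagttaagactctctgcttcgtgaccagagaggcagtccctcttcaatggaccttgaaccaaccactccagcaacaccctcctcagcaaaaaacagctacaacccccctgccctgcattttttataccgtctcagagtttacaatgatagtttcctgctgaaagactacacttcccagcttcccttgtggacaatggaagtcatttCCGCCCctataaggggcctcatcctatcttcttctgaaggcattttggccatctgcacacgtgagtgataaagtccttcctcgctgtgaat
Tfpi, second start, chr2:84474125-84474424, minus strand: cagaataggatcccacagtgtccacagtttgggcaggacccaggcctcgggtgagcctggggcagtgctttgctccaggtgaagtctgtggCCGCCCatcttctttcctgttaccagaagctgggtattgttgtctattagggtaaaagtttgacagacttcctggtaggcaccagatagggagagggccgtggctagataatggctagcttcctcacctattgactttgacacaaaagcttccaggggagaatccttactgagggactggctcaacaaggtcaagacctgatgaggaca
Pros1, chr16:62854057-62854356, plus strand: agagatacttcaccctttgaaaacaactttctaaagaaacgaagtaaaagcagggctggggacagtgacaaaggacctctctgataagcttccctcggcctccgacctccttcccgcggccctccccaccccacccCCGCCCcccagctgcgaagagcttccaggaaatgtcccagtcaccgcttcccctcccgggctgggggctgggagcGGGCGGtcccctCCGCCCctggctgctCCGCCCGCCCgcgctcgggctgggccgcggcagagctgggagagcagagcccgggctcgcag
Procr, chr2:155750967-155751266, plus strand: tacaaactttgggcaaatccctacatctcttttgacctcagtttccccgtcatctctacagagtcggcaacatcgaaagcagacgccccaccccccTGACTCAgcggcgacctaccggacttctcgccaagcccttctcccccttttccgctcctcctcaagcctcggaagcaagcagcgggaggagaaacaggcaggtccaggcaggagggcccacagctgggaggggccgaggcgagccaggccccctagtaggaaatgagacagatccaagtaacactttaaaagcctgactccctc
The F3 window held 2 matches of TGANTCA, at bases 105 to 111 and 116 to 122 counted from its 5′ end, and 3 of GGGCGG, in a sequence with 70.3% G and C. Of all 32851 windows in the RefSeq table, 7.81% held TGANTCA and 35.7% held GGGCGG. Procr held TGANTCA once and no GGGCGG, Pros1 held GGGCGG in 5 places, and each Tfpi window held it once. The 2 Tfpi windows had 48.0% and 52.3% G and C, against 66.7% for Pros1 and 58.3% for Procr. These matches describe letters and were not tested for binding.

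Library totals ran from 21652432 to 21687906 counts, 14451 genes passed the filter on low counts, and all 9 members were among them. The lowest count of any member in any library was 138, for Plau, and the highest 28941, for Serpine2. Markers of the labelled tissue were present in every library: the smooth muscle actin gene Acta2 averaged 18370 CPM (counts relative to library size, scaled by TMM factors) with a range of 14082 to 22749, and the endothelial gene Pecam1 averaged 306 CPM with a range of 192 to 430. Control 6 was the lowest control for 7 of the 9 members and the highest for Plau, and it also had the highest summed markers of white and general adipocytes, 6027 CPM against a control median of 1939. Rofecoxib 2 was the lowest library of all for F3, and its summed cardiac muscle markers were 509 CPM, against a rofecoxib median of 97.5 CPM. Results are therefore also given without control 6 and rofecoxib 2 where this changed them.

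Serpine2 was the member with the most RNA per length and Tfpi the one with the least. On the scale of CPM per kb of merged exons, Serpine2 averaged 142 ± 12.4 (SD, n = 24) and lay at percentile 98.3 of 14075 tested genes with a known length. F3 followed at 67.5 ± 15.8, at percentile 95.6. Their ranges, 115 to 163 for Serpine2 and 36.7 to 95.7 for F3, did not meet. Thbd averaged 28.4 ± 3.61 and Pros1 25.8 ± 1.95 CPM per kb, and Thbd was the higher of the pair in 20 of 24 libraries, so their order was not the same in every library. Plat (16.8 ± 2.05), Vwf (10.2 ± 2.43) and Procr (7.25 ± 1.77) followed, with Plat above Vwf in 23 of 24 libraries and Vwf above Procr in all 24. Plau (4.09 ± 0.790) and Tfpi (3.68 ± 0.368) were lowest and close together, with Plau above Tfpi in 16 of 24 libraries and Tfpi at percentile 42.5. The scale divides by the length of all annotated exons of a gene together, 16.064 kb for Vwf and 2.031 kb for Procr, and does not tell which transcript was used. The order of the genes depends on these lengths. Each length is the same for all libraries, so the counts of libraries above do not test it.

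**Figure D1:**
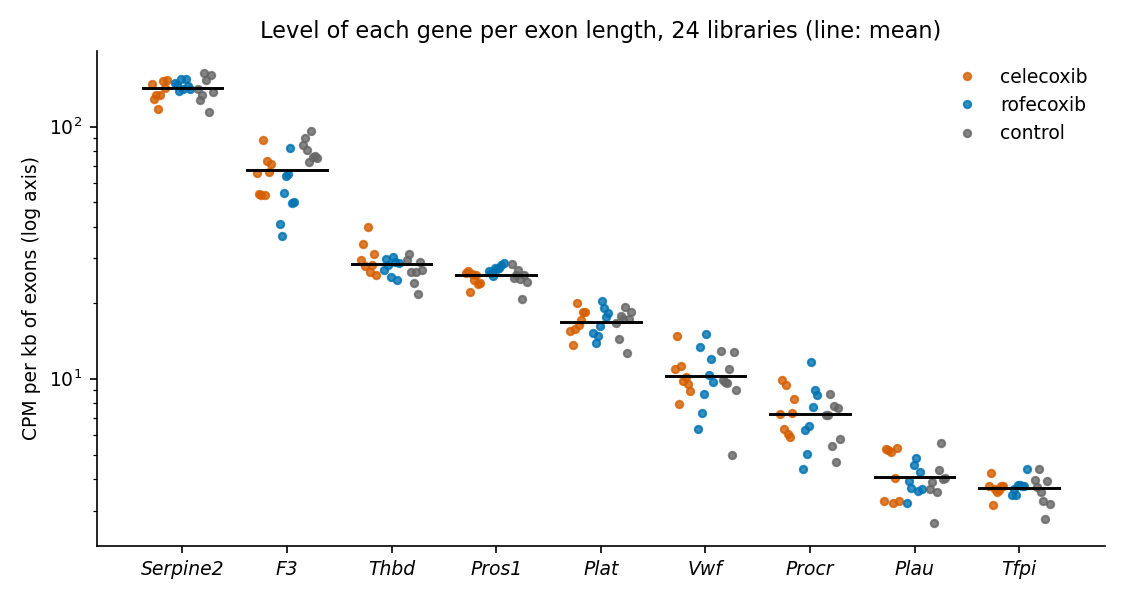
Level of each of the 9 genes as CPM per kb of merged exons on a log axis, 1 point per library in 3 colours (celecoxib, rofecoxib, control) and a line at the mean of 24 libraries. Serpine2, at 142 CPM per kb, stands above F3 at 67.5, while Plau (4.09) and Tfpi (3.68) overlap at the lower end.

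Across the 9 genes, F3 was lower with rofecoxib than in controls and no other difference between groups passed the test. A gene is called here at a Benjamini-Hochberg adjusted p under 0.05 over all 14451 genes in edgeR's quasi-likelihood test. With celecoxib against control 0 of the 9 members were called, where 1.41% of all genes were called (0.913% higher and 0.498% lower). At an unadjusted p under 0.05 that comparison held 2 members, F3 and Thbd, beside 17.3% of all genes, and DESeq2 called 0. With rofecoxib against control 1 of 9 was called, where 5.3% of all genes were called (2.43% higher and 2.87% lower), and 2 were at an unadjusted p under 0.05, F3 and Pros1, beside 27.1% of all genes. Between the drugs, celecoxib against rofecoxib, 0 of 9 were called, where 22.7% of all genes were called (11.5% higher and 11.2% lower), with 1 member, Pros1, at an unadjusted p under 0.05 beside 35.99% of all genes, and 0 called by DESeq2. The median log2 fold change of the 9 members was 0.03 with celecoxib and 0.05 with rofecoxib against control, and 0.01 between the drugs, beside medians over all genes of -0.0053, -0.0002 and -0.0026. The drugs were given at different doses, so the comparison between them is one of these diets and not of equal doses, and both drug comparisons share the same 8 control libraries.

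F3, the initiator of coagulation (mm9 chr3:121426253-121438172, ENSMUSG00000028128), had its highest levels in controls. In celecoxib aortas it ranged from 135 to 224 CPM with a median of 166, in rofecoxib aortas from 92.8 to 208 CPM with a median of 132, and in control aortas from 183 to 242 CPM with a median of 199. All but 1 rofecoxib library lay below the lowest control, 7 of 8, and 6 of 8 celecoxib libraries did, while rofecoxib 6, at 208 CPM, lay among the controls. F3 averaged 140.1 ± 37.1 CPM in rofecoxib aortas and 205.5 ± 20.6 CPM in control aortas (SD, n = 8 each). It fell with rofecoxib, with a log2 fold change of -0.55 ± 0.13 (SE; 95% interval -0.82 to -0.28; edgeR quasi-likelihood adjusted p = 0.0240), a fold of 0.682. In celecoxib aortas F3 averaged 166 ± 30.8 CPM, a log2 fold change against control of -0.31 ± 0.13 (95% interval -0.58 to -0.04) that did not pass the adjustment over all genes (edgeR adjusted p = 0.225, unadjusted p = 0.0275). The difference between the drugs was 0.24 ± 0.13 on the log2 scale (celecoxib minus rofecoxib, 95% interval -0.03 to 0.52, edgeR adjusted p = 0.184), so the response to rofecoxib was not shown to differ from that to celecoxib.

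The call on F3 with rofecoxib held in 21 of 24 fits that left out 1 library. The edgeR adjusted p became 0.0516 without rofecoxib 7, 0.0558 without rofecoxib 8 and 0.0572 without control 5, with log2 fold changes of -0.53, -0.53 and -0.51. Without control 6 and rofecoxib 2 together the log2 fold change was -0.50 and the edgeR adjusted p 0.0505. Over all 24 such fits it ran from 0.00682 to 0.0572. Without rofecoxib 6 the difference between celecoxib and rofecoxib became a call, at 0.35 on the log2 scale (edgeR adjusted p = 0.0386, with 0.361 as the highest of the 24 fits).

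Summed markers of fibroblasts and of macrophages had, like F3, their lowest medians with rofecoxib. So did endothelial, white and general adipocyte, and hepatocyte markers, while each of the other marker lists was lowest in another group. Adipocyte medians were 1947 CPM in celecoxib, 1543 CPM in rofecoxib and 1939 CPM in control aortas. Hepatocyte medians were 5.13, 3.15 and 4.73 CPM in the same order. Summed markers of fibroblasts and adventitia ranged from 13602 to 19086 CPM in celecoxib aortas (median 17203), from 12144 to 15247 CPM in rofecoxib aortas (median 13896) and from 13542 to 19280 CPM in control aortas (median 17906). Of these 12 marker genes, 3 were called lower with rofecoxib than in controls and 0 higher, beside 2.87% and 2.43% of all genes. With celecoxib against control 0 of 12 were called, beside 1.41% of all genes. Between the drugs 5 of 12 were called higher with celecoxib and 0 lower, beside 11.5% and 11.2% of all genes. Summed macrophage and monocyte markers had medians of 285 CPM in celecoxib aortas, 253 CPM in rofecoxib aortas and 317 CPM in control aortas. Here too 3 of 12 genes were called lower with rofecoxib than in controls and 0 higher, beside 2.87% and 2.43% of all genes. In the other comparisons 0 of 12 were called. No gene of either list was at 0 in all libraries, and the most abundant were the collagen gene Col1a2 (4091 CPM on average) and the lysozyme gene Lyz2 (98.5 CPM). Smooth muscle markers had median sums of 54562 CPM in celecoxib, 54752 CPM in rofecoxib and 48010 CPM in control aortas. Against control 2 of 12 were called higher with each drug, beside 0.913% of all genes with celecoxib and 2.43% with rofecoxib. In whole aorta, fewer cells of a type and less RNA per cell cannot be told apart, and the part of these markers in the F3 result was not tested.

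**Figure D2:**
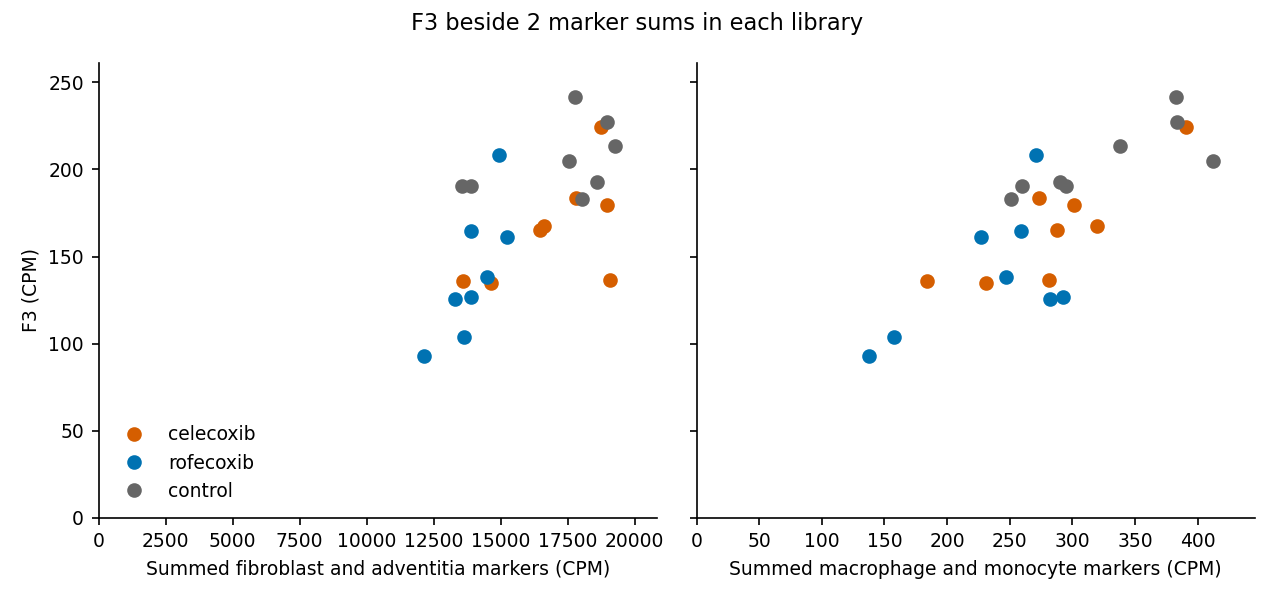
F3 in CPM against the summed CPM of 12 fibroblast and adventitia markers (left) and of 12 macrophage and monocyte markers (right), 1 point per library, coloured by group. The library lowest on both marker axes is a rofecoxib one with 92.8 CPM of F3, and the 8 control libraries lie between 183 and 242 CPM of F3.

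Tfpi encodes the inhibitor of the complex of tissue factor and factor VIIa (mm9 chr2:84272810-84317134, ENSMUSG00000027082). Its group medians were close together: it ranged from 17.3 to 23.1 CPM with celecoxib (median 20.2), from 18.8 to 23.9 CPM with rofecoxib (median 20.5) and from 15.1 to 24.0 CPM in controls (median 19.8). The groups overlapped fully, and the controls spread most. Log2 fold changes were 0.03 ± 0.07 with celecoxib and 0.06 ± 0.07 with rofecoxib against control, with 95% intervals of -0.12 to 0.19 and -0.10 to 0.21. Under a correction for transcript GC content the value between the drugs changed sign, to 0.13 for celecoxib minus rofecoxib, against -0.02 without it.

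The protein C pathway held the next largest values after F3, none of which passed the test. Thbd, the thrombin receptor that redirects thrombin to protein C (mm9 chr2:148230005-148234126, ENSMUSG00000074743), ranged from 96.0 to 148 CPM with celecoxib (median 108), from 91.9 to 113 CPM with rofecoxib (median 106) and from 80.6 to 116 CPM in controls (median 99.7). Celecoxib 2, 4 and 7 lay above every control library, and the other 5 lay among the controls. Thbd averaged 113 ± 17.3 CPM in celecoxib aortas and 100.2 ± 11.4 CPM in control aortas (SD, n = 8 each), a log2 difference of 0.18 ± 0.08 (95% interval 0.01 to 0.34, edgeR adjusted p = 0.253). Without celecoxib 4, the library at 148 CPM, it was 0.10 (edgeR adjusted p = 0.5004, the highest of the 24 fits without 1 library). With rofecoxib the difference from control was 0.05 ± 0.08 (edgeR adjusted p = 0.708).

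Procr, which presents protein C to the thrombin and thrombomodulin complex (mm9 chr2:155576651-155581409, ENSMUSG00000027611), had the largest coefficient of variation of any member in any group, 32.2% among rofecoxib libraries. It ranged from 12.0 to 20.05 CPM with celecoxib (median 14.8), from 8.87 to 23.8 CPM with rofecoxib (median 14.4) and from 9.46 to 17.7 CPM in controls (median 14.6). The rofecoxib libraries reached both below and above all other libraries. The log2 differences from control were 0.15 ± 0.17 with celecoxib and 0.12 ± 0.17 with rofecoxib, with intervals that reach from -0.20 to 0.50 and from -0.23 to 0.47. Single libraries moved both: the value with celecoxib was 0.088 without control 6, and that with rofecoxib was 0.00078 without rofecoxib 5.

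Pros1, the cofactor of activated protein C and of Tfpi (mm9 chr16:62853931-62929374, ENSMUSG00000022912), was the member with the tightest groups. It ranged from 90.1 to 109.6 CPM with celecoxib (median 103), from 105 to 118 CPM with rofecoxib (median 112) and from 84.5 to 117 CPM in controls (median 104). All 8 rofecoxib libraries lay above the control median, 1 of them above the highest control, and 4 of 8 celecoxib libraries lay below the lowest rofecoxib library. The log2 difference of rofecoxib from control was 0.11 ± 0.05 (edgeR adjusted p = 0.164) and 0.013 with a correction for GC content (edgeR adjusted p = 0.914), and that of celecoxib from rofecoxib was -0.13 ± 0.05 (95% interval -0.23 to -0.03, edgeR adjusted p = 0.0646). The value between the drugs passed the threshold in some refits: its edgeR adjusted p was 0.0476 without celecoxib 1, 0.0406 without celecoxib 2, 0.0495 without control 1 and 0.0227 without control 6, with log2 differences of -0.15 to -0.13, and 0.130 was the highest of the 24 fits without 1 library. With a correction for GC content the log2 difference was -0.0048 (edgeR adjusted p = 0.967). Slopes of log2 CPM per unit GC fraction averaged 0.82 ± 0.98 for celecoxib, -1.12 ± 1.02 for rofecoxib and 0.30 ± 0.91 for control (SD, n = 8 each). Their difference between groups was not tested. Pros1 transcripts hold 43.4% G and C. The correction removes each library's own trend with GC content, whatever its source. A trend from library preparation and one from the diets cannot be told apart here, and the part of GC content in the Pros1 values was not tested.

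Vwf, the platelet tether of the endothelium (mm9 chr6:125496590-125636899, ENSMUSG00000001930), ranged from 128 to 237 CPM with celecoxib (median 161), from 102 to 243 CPM with rofecoxib (median 161) and from 80.2 to 207 CPM in controls (median 157). The medians lay together and the groups overlapped. Its log2 differences from control were 0.06 ± 0.18 with celecoxib and 0.05 ± 0.18 with rofecoxib. The intervals, -0.30 to 0.43 and -0.31 to 0.42, are wide, and a change within them was not detectable at this spread between libraries. Control 6, at 80.2 CPM, stood apart from the other controls, which held 145 to 207 CPM, and without control 6 and rofecoxib 2 the values were -0.04 with celecoxib and -0.10 with rofecoxib. Endothelial marker genes gave a like picture, with summed medians of 1013 CPM in celecoxib, 997 CPM in rofecoxib and 1001 CPM in control aortas. By edgeR 0 of 20 were called in any of the 3 comparisons. Beside this, 1.41% of all genes were called with celecoxib, 5.3% with rofecoxib and 22.7% between the drugs.

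The plasminogen activators and their inhibitor Serpine2 gave small differences between groups, none of which passed the test. Plat (mm9 chr8:23868014-23893521, ENSMUSG00000031538) ranged from 84.7 to 124 CPM with celecoxib (median 104), from 86.8 to 127 CPM with rofecoxib (median 105) and from 79.2 to 119.8 CPM in controls (median 108). Its log2 differences from control were 0.01 ± 0.09 and 0.02 ± 0.09 for celecoxib and rofecoxib, and the 95% intervals lay between -0.17 and 0.20.

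Plau (mm9 chr14:21655682-21662812, ENSMUSG00000021822) had 7.57 to 12.6 CPM with celecoxib (median 10.8), 7.58 to 11.5 CPM with rofecoxib (median 9.02) and 6.33 to 13.2 CPM in controls (median 9.33). Of the celecoxib libraries 4 lay above every rofecoxib library and none lay above the highest control. The log2 differences were 0.13 ± 0.13 for celecoxib from control, 0.00 ± 0.14 for rofecoxib from control and 0.13 ± 0.13 for celecoxib from rofecoxib. None of the 3 passed the test (edgeR adjusted p of 0.659, 0.999 and 0.534).

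Serpine2 (mm9 chr1:79790570-79855473, ENSMUSG00000026249) had 977 to 1266 CPM with celecoxib (median 1139), 1151 to 1285 CPM with rofecoxib (median 1207) and 949 to 1349 CPM in controls (median 1154). The rofecoxib libraries were the most alike, with a coefficient of variation of 4.32%, against 11.7% among controls. The log2 differences were -0.03 ± 0.06 with celecoxib and 0.05 ± 0.06 with rofecoxib from control, and -0.08 ± 0.06 for celecoxib from rofecoxib. With intervals from -0.16 to 0.10, from -0.08 to 0.18 and from -0.21 to 0.05, these data place any change of Serpine2 within about those bounds.

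**Figure D3:**
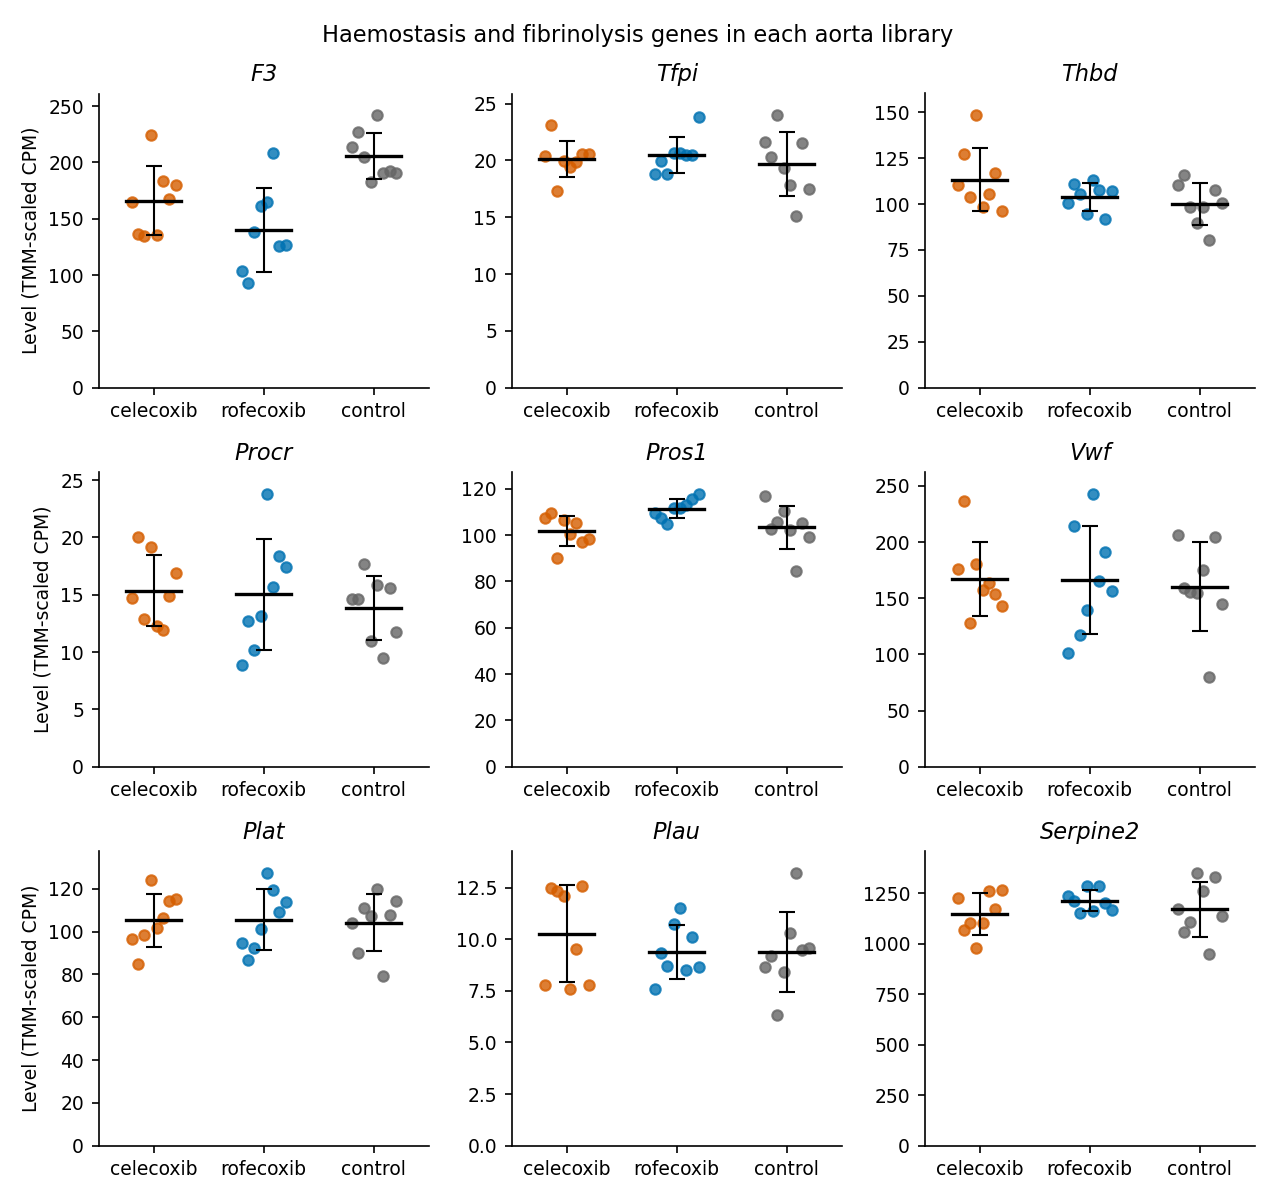
Level of each gene in each library in TMM-scaled CPM, with 8 points per group in the order celecoxib, rofecoxib, control and the mean ± SD in black. Rofecoxib F3 values, 92.8 to 208 CPM, lie mostly below the controls, 183 to 242 CPM, but reach into their range. The groups overlap for the other 8 genes as well.

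**Figure D4:**
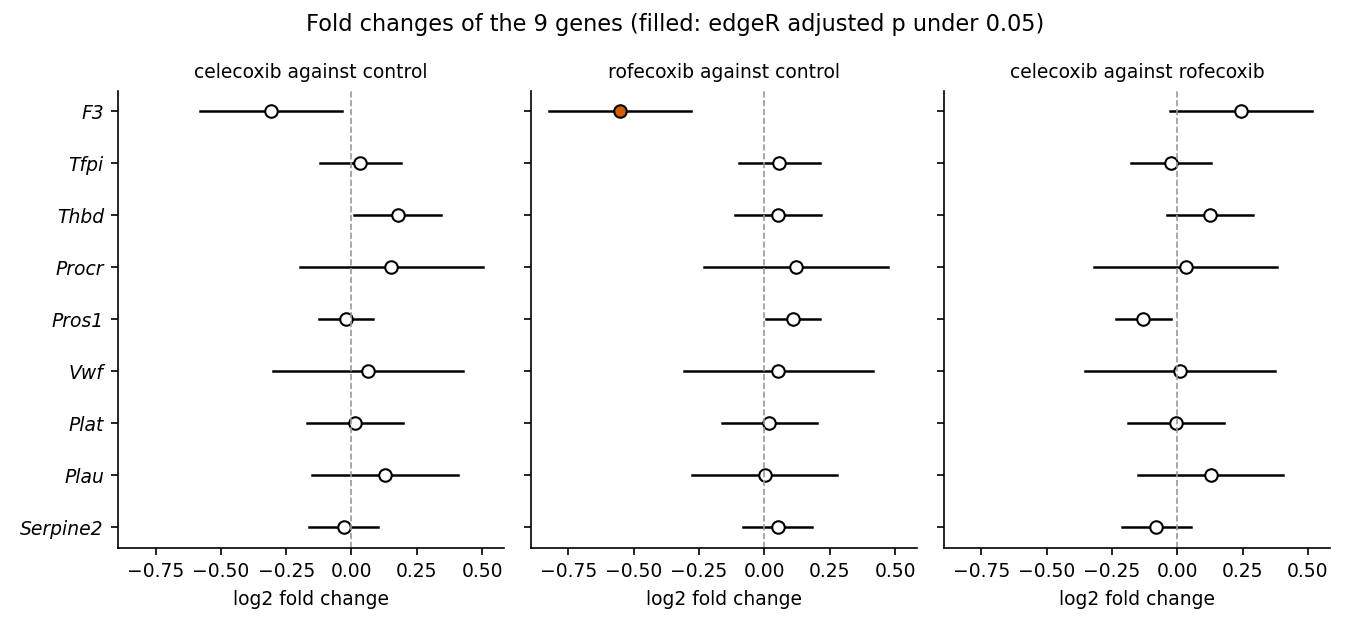
Log2 fold changes of the 9 genes with 95% intervals in the 3 comparisons, the group named first above each panel over the other, filled where the edgeR adjusted p is under 0.05. F3 with rofecoxib against control, at -0.55, is the filled point.

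Among libraries of the same diet, several of the 9 genes rose and fell together. Pearson's r was taken over the 24 libraries on log2 CPM after removing each group's mean, with permutation of libraries within groups (100000 resamples, two-sided) and Benjamini-Hochberg adjustment over the 36 pairs. Of these pairs 10 passed at an adjusted p under 0.05, all with positive r. No share of passing pairs over all genes is given here. The count therefore does not show that these genes vary together more than other genes do. The inhibitor Tfpi and protein S, its cofactor, had the highest r, 0.77 (permutation p = 0.00012, adjusted 0.00216; Spearman's rho 0.63, permutation p = 0.00226, adjusted 0.0163). Within the groups r was 0.75 among celecoxib, 0.80 among rofecoxib and 0.78 among control libraries, and it was 0.72 without control 6 and control 3, the libraries farthest from the median of Tfpi. Procr and Vwf had r = 0.75 (permutation p = 7e-05, adjusted 0.00216; rho 0.69, permutation p = 0.00089, adjusted 0.0160), with 0.63, 0.82 and 0.74 in celecoxib, rofecoxib and control libraries and 0.64 without rofecoxib 1 and rofecoxib 5. F3 was joined to 1 member, Plat, with r = 0.59 (permutation p = 0.00321, adjusted 0.0165; rho 0.53, permutation p = 0.0127, adjusted 0.0753). That r was 0.80 among celecoxib, 0.71 among rofecoxib and 0.16 among control libraries, 0.60 without control 6 and celecoxib 2, and 0.54 without celecoxib 4, where the adjusted permutation p was 0.0534, the highest of the 24 fits without 1 library.

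The other pairs that passed joined Thbd with Procr (0.48) and Vwf (0.57), Procr with Plat (0.54), Tfpi (0.64) and Pros1 (0.48), and Vwf with Tfpi (0.62) and Pros1 (0.70). Serpine2 and Plau were in no pair that passed, and Plau had negative r with Serpine2 (-0.39), Tfpi (-0.38) and Pros1 (-0.36). By rank, 4 of the 10 missed the threshold, with adjusted permutation p for Spearman's rho of 0.0753 for Plat with Procr, 0.0787 for Thbd with Procr and for Procr with Pros1, and 0.124 for Tfpi with Vwf. Plat with Procr lost its call in 13 of 24 fits without 1 library and had r = 0.03 among celecoxib libraries, while Thbd with Procr lost it in 9 fits and Procr with Pros1 in 6. Of the 10 pairs, 5 still passed without control 6, 6 without celecoxib 4 and 4 without control 6 and rofecoxib 2, and 3 still passed after correction for GC content. Without control 6 the r of Tfpi with Vwf was 0.44 and that of Thbd with Vwf 0.44. Tfpi with Pros1 and Procr with Vwf passed in each of these settings and in every fit that left out 1 library. When the celecoxib, rofecoxib or control libraries were taken alone, 0 of the 10 pairs passed.

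The genes also varied with summed markers of the wall's cell types, in a family of 36 relations that was added after the data had been seen. By the same within-group permutation test 9 passed, and 8 to 10 did in the fits without 1 library. No share of passing relations over all genes is given here. The count therefore does not show that these genes follow the markers more than other genes do. Relations under the GC correction are not given here either. Endothelial markers went with Procr (r = 0.74), Vwf (0.71), Thbd (0.54) and Plau (0.49). Fibroblast and adventitial markers went with Pros1 (0.64), Tfpi (0.61) and F3 (0.53), and macrophage and monocyte markers with F3 (0.73) and Procr (0.66). Among celecoxib, rofecoxib and control libraries, r with endothelial markers was 0.84, 0.94 and 0.25 for Vwf and 0.87, 0.82 and 0.34 for Procr. With fibroblast markers it was 0.54, 0.13 and 0.82 for Pros1 and 0.66, 0.05 and 0.76 for Tfpi. By rank, Plau with endothelial and Pros1 with fibroblast markers missed the threshold (adjusted permutation p for Spearman's rho of 0.0613 and 0.0632). For F3 and the macrophage list the adjusted permutation p was 0.00378 (rho 0.62, adjusted 0.0188), with r of 0.81, 0.69 and 0.81 among celecoxib, rofecoxib and control libraries and 0.62 without rofecoxib 2 and celecoxib 5. For F3 and the fibroblast list the adjusted permutation p was 0.0113 (rho 0.53, adjusted 0.0353), with r of 0.60, 0.82 and 0.45 in the same order and 0.52 without control 6 and celecoxib 5. Plat, Serpine2 and smooth muscle markers entered no relation that passed. No member belongs to any of these 4 marker lists.

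**Figure D5:**
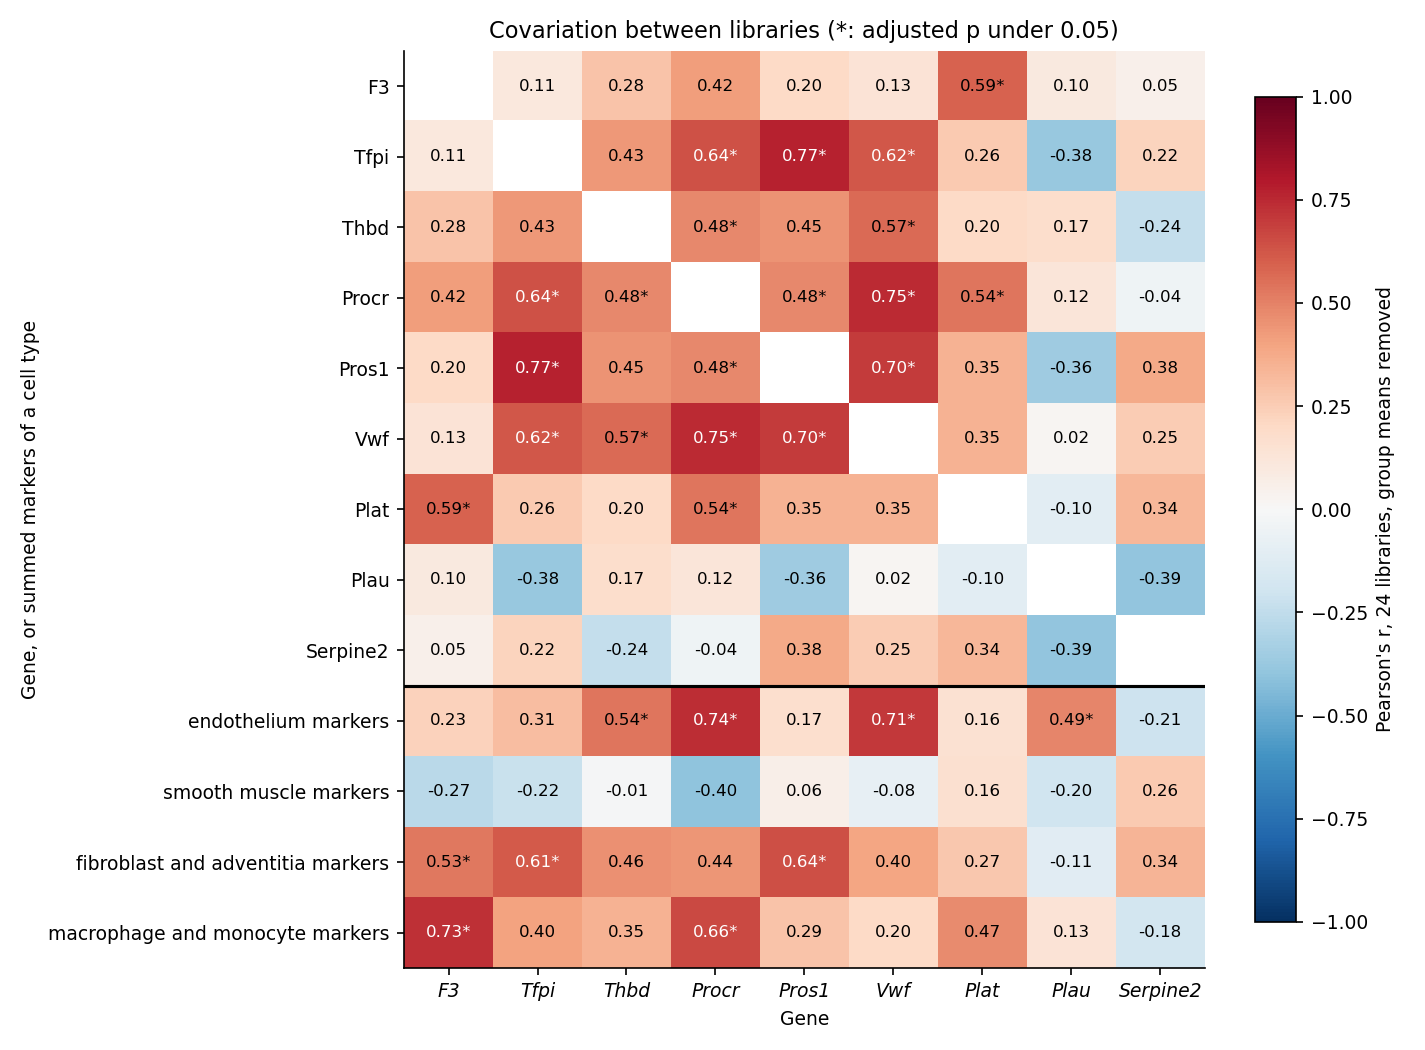
Pearson's r over 24 libraries with group means removed, between the 9 genes (upper block) and between each gene and summed markers of 4 cell types (lower rows), red for positive and blue for negative, with a star at an adjusted permutation p under 0.05. Tfpi with Pros1 (0.77) and Procr with Vwf (0.75) are the highest pairs, and F3 is highest with the macrophage and monocyte markers (0.73).

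Over all 14451 tested genes, the 2 with the highest r to each member, on the same group-centred scale over 24 libraries, are given as a description. F3 was nearest to Smoc2 (r = 0.89), a secreted matricellular protein, and Cpxm2 (0.89). Procr was nearest to Ptgs1 (0.89), which encodes cyclooxygenase-1, and Ece1 (0.85), the endothelin-converting enzyme. Vwf was nearest to Slco2a1 (0.84), the prostaglandin transporter, and Mmrn2 (0.84), an endothelial matrix protein. Pros1 was nearest to Golim4 (0.90) and the cytokine receptor subunit Il6st (0.89), and Tfpi to the cytokine Lif (0.77) and to Pros1 (0.77). Serpine2 went with Lhfp (0.90) and Rab31 (0.84), Thbd with Emp1 (0.81) and Cilp (0.77), Plat with Ctsh (0.81) and Snx7 (0.81), and Plau with Ttc9 (0.85) and Abi3 (0.84).

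A wider set of 59 haemostasis genes in 6 lists gives the surroundings of these members, and 35 of them had enough counts to be tested. Several factors made mainly in the liver were nearly without reads: the thrombin gene F2, factor IX, factor XI and the fibrinogen genes had at most 3 counts in any library. Only 4 of 16 genes of the coagulation factor list were tested. Among these 4 were F5 and Kng2, which reached 130 and 157 counts. With celecoxib against control 1 of 35 was called (2.86%), with rofecoxib against control 3 of 35 (8.57%), and with celecoxib against rofecoxib 5 of 35 (14.3%), beside 1.41%, 5.3% and 22.7% of all genes.

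Annexin A5, which covers phosphatidylserine surfaces on which clotting factors assemble, was called with both drugs. Anxa5 averaged 342 ± 9.27 CPM with celecoxib, 348 ± 11.8 CPM with rofecoxib and 313 ± 9.77 CPM in controls (SD, n = 8 each), and 7 of 8 libraries of each drug lay above the highest control. It rose with celecoxib, at a log2 fold change of 0.13 ± 0.03 (edgeR adjusted p = 0.0383), and with rofecoxib, at 0.15 ± 0.03 (edgeR adjusted p = 0.0119). The call with celecoxib was lost in 16 of 24 fits without 1 library, where the log2 values stayed between 0.11 and 0.14. Both calls were lost under the GC correction, at nearly the same folds: 0.13 with celecoxib (edgeR adjusted p = 0.0873) and 0.15 with rofecoxib (edgeR adjusted p = 0.0739).

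Gas6, a vitamin K-dependent ligand related to protein S, and Lrp1, which clears complexes of plasminogen activators with their inhibitors, were lower with rofecoxib than in controls. Gas6 averaged 575 ± 66.4 CPM in rofecoxib aortas and 670.2 ± 49.9 CPM in control aortas (log2 -0.22 ± 0.07, edgeR adjusted p = 0.0495). Lrp1 averaged 986 ± 144 CPM in rofecoxib aortas and 1205 ± 138 CPM in control aortas (log2 -0.29 ± 0.09, edgeR adjusted p = 0.0495). Both calls lay at the threshold and were lost in 19 of 24 fits without 1 library and under the GC correction, where the values were -0.14 and -0.19.

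Calls between the drugs included the plasminogen receptor gene Plgrkt, Lrp1, and Ptgis and Nos3, whose products make prostacyclin and nitric oxide, both of which restrain platelets. Plgrkt averaged 29.5 ± 1.61 CPM with celecoxib and 34.0 ± 2.86 CPM with rofecoxib (log2 -0.20 ± 0.05, edgeR adjusted p = 0.0114). Lrp1 averaged 1191 ± 122 CPM with celecoxib and 986 ± 144 CPM with rofecoxib (log2 0.27 ± 0.09, edgeR adjusted p = 0.0266). The Lrp1 call was lost in 5 of 24 fits without 1 library and in 3 of 9 other settings. Ptgis averaged 1164 ± 152 CPM with celecoxib and 944 ± 106 CPM with rofecoxib (log2 0.30 ± 0.08, edgeR adjusted p = 0.00940). Nos3 averaged 49.8 ± 6.20 CPM with celecoxib and 36.2 ± 12.5 CPM with rofecoxib (log2 0.46 ± 0.16, edgeR adjusted p = 0.0399). The Nos3 call was lost in 11 of 24 fits without 1 library. It was also lost in 6 of 9 other settings, among them library totals, no filter and 2 groups only. With the GC correction the calls on these 4 genes were lost, with Plgrkt at -0.14, Lrp1 at 0.13, Ptgis at 0.14 and Nos3 at 0.29. The 1 gene called under that correction was S100a10, named after its values were seen, whose product forms the plasminogen-binding complex with annexin A2 (log2 0.19 ± 0.05, edgeR adjusted p = 0.0287).

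The most abundant genes of the lists of receptors, vitamin K cycle and coagulation factors, and Entpd1 and Proz, did not pass the test in any of the 3 comparisons over all 24 libraries. The receptors Axl and Mertk, which bind Gas6, averaged 692 and 197 CPM with celecoxib, 689 and 165 CPM with rofecoxib, and 716 and 164 CPM in controls. Lman1 and Mcfd2, which carry factors V and VIII out of the endoplasmic reticulum, averaged 77.3 and 103 CPM with celecoxib, 75.8 and 99.7 CPM with rofecoxib, and 76.6 and 101 CPM in controls. Entpd1, the ectonucleotidase CD39 that breaks down ADP, averaged 363 CPM with celecoxib, 424 CPM with rofecoxib and 359 CPM in controls, with edgeR adjusted p of 0.0754 for rofecoxib against control and 0.0565 for celecoxib against rofecoxib. Entpd1 was called between the drugs in 5 alternatives, at adjusted p of 0.0459 in DESeq2 and, in edgeR, 0.0395 with 2 groups only, 0.0400 with library totals, 0.0431 with the replicate block and 0.0413 without control 6 and rofecoxib 2, with log2 values of -0.23 to -0.21. Mertk was called between the drugs without control 6 and rofecoxib 2 (log2 0.29, edgeR adjusted p = 0.0426). F13a1, the catalytic subunit of factor XIII, had medians of 41.5 CPM with celecoxib, 36.5 CPM with rofecoxib and 43.7 CPM in controls. Kng2 averaged 2.01 CPM with celecoxib, 2.70 CPM with rofecoxib and 2.59 CPM in controls, and Proz 1.81, 1.55 and 1.90 CPM in the same order.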

How the data were processed

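Polyadenylated RNA of thoracic aorta was sequenced in 24 libraries, 8 per diet. The series' design text calls them biological replicates, and no label ties a library to an animal, so p-values measure the spread between these samples. The authors deposited whole-number counts per gene, 1 table with mm9 coordinates. CASAVA 1.8.2, STAR 2.5.1b and mm9 are named in the submitters' processing notes; no source used here gives the counting tool, its use of strand or the step that made library totals equal within 0.164%. If counts were scaled rather than drawn, edgeR's model of their spread would be affected. Libraries were made over several days, per the labels' protocols, with no day given for each; sample numbers run in a block per group, so groups and any batch in that order cannot be told apart.

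Counts were tested with edgeR 4.0.16 in R 4.3.3: filterByExpr left 14451 genes, library sizes took TMM factors (0.959 to 1.03), and a robust quasi-likelihood fit with 1 mean per group over all 24 libraries left 21 residual degrees of freedom. The common biological coefficient of variation was 0.16. Benjamini-Hochberg adjustment ran over all genes tested. The scripts were tested on simulated data. CPM and log2 CPM (prior count 2) were computed from the counts; exon lengths and GC content came from GENCODE M21, and promoters from RefSeq on GRCm38.p6. No 2 libraries of a group agreed within sampling noise (lowest chi-square per degree of freedom 7.55).

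The 9 members, the lists and the tests were chosen with earlier results of these data known. Named genes were all members, every called gene and the 2 most abundant genes of each wider list, and the 2 genes most like each member. 1 gene of the wider lists is counted but not reported here. Plgrkt was matched by its Ensembl identifier, the other genes by symbol. Alternatives were RLE size factors, unscaled totals, no filter, DESeq2 1.42.0, fits of 2 groups only, a replicate block, a GC correction (a spline with 5 degrees of freedom per library), both together, leaving out each library, and leaving out control 6 with rofecoxib 2.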

Additional observations from a re-analysis of the deposited data

Results flagged for a closer look

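In groups of 8 libraries, a value was picked out when its gap to the nearest library as a share of the group's range on log2 CPM exceeded Dixon's 95% critical value, which chance does in about 1 in 20 groups; 48 groups were looked at, the 3 diets for each of the 9 members and the 7 other called genes, and 2 values were picked out. Vwf stood apart in control 6, at 80.2 CPM, where the other controls held 145 to 207 CPM. Summed endothelial markers in that library were 996 CPM, close to the control median of 1001 CPM, while smooth muscle markers, at 41944 CPM, were the lowest of the controls. Tfpi stood apart in rofecoxib 8, at 23.9 CPM, where the other rofecoxib libraries held 18.8 to 20.6 CPM.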

How the results depend on the processing

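F3 kept its sign in every alternative for all 3 comparisons, and its call with rofecoxib was lost under the replicate block with GC correction and without control 6 and rofecoxib 2, where 0 and 0 members were called against 1 (log2 fold changes -0.65 and -0.50, edgeR adjusted p 0.0543 and 0.0505, against -0.55 and 0.0240). It was also lost in 3 of 24 fits without 1 library (count 0 to 1), at -0.53 to -0.51, while all 24 fits ran from -0.67 to -0.48. Between the drugs the count of 0 members became 1 (Pros1) with library totals, 1 with 2 groups only and 1 without control 6 and rofecoxib 2, and ran from 0 to 1 without 1 library. The count of other haemostasis genes with celecoxib, 1, was 0 with library totals, no filter, 2 groups only, the replicate block and the block with GC correction, 4 with DESeq2, 2 without control 6 and rofecoxib 2, and 0 to 3 without 1 library. With GC correction the count stayed 1, but the gene called was S100a10 (log2 0.23, edgeR adjusted p = 0.0367) and no longer Anxa5. With rofecoxib, 3 became 1 with RLE size factors, no filter, 2 groups only, the replicate block and without control 6 and rofecoxib 2, 5 with DESeq2, 0 with GC correction with or without the block, and 1 to 3 without 1 library. Between the drugs, 5 became 8 with DESeq2, 1 with GC correction with or without the block, and 3 to 8 without 1 library. Calls over all genes shifted as well. With celecoxib 204 became 479 with DESeq2, 183 with library totals, 88 with 2 groups only and 123 with GC correction. With rofecoxib 766 became 1493 with DESeq2, 461 with 2 groups only and 75 with GC correction. Between the drugs 3275 became 3603 with DESeq2 and 931 with GC correction. The number of member pairs that passed, 10, was 4 with GC correction (3 of the 10 and 1 other), 5 without control 6 and rofecoxib 2 (4 of the 10 and 1 other), and 6 to 10 without 1 library. The cause of these shifts was not tested. In the reported fit the replicate numbers were not used as pairs. Deviations of same-numbered libraries correlated above 0.1 in 5, 3 and 2 of 8 pairs (celecoxib with control, rofecoxib with control, celecoxib with rofecoxib). The median correlations were 0.20, 0.04 and -0.08. Differently numbered libraries were not set beside them, so these values do not settle whether the numbers pair the libraries. Log2 values near 0 changed sign, none of them called. With celecoxib against control, Plat was -0.0088 with library totals, Pros1 0.0079 with GC correction and 0.0094 with the block and GC correction, and without control 6 and rofecoxib 2 Plat was -0.036, Tfpi -0.014 and Vwf -0.037. With rofecoxib against control, Plau was -0.0016 with RLE size factors, -0.0057 with library totals, -0.0038 with no filter, -0.0016 with DESeq2, -0.00085 with the replicate block, -0.021 with GC correction and -0.024 with both; Plat was -0.021 with GC correction and -0.018 with both, Tfpi -0.063 and -0.059, and Vwf -0.10 without control 6 and rofecoxib 2. With celecoxib against rofecoxib, GC correction alone and with the block gave Plat 0.055 and 0.051, Tfpi 0.13 and 0.13, Procr -0.034 and -0.019, and Vwf -0.042 and -0.032; Vwf was -0.0063 with library totals and Procr -0.0040 without control 6 and rofecoxib 2. Without 1 library, with celecoxib Plat ran from -0.036 to 0.053, Pros1 from -0.060 to 0.0066, Serpine2 from -0.070 to 0.0024, Tfpi from -0.014 to 0.080 and Vwf from -0.037 to 0.12; with rofecoxib Plat from -0.027 to 0.059, Plau from -0.060 to 0.089 and Vwf from -0.044 to 0.12; between the drugs Plat from -0.046 to 0.033, Procr from -0.045 to 0.15, Tfpi from -0.058 to 0.0073 and Vwf from -0.081 to 0.10. Intervals of Vwf and Procr are the widest among the members and limit what size of change could be seen.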
